A study of Saccharomyces cerevisiae BY4741 with 24 samples.

Results

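The aspartate family is the set of amino acids that yeast builds from aspartate, which are asparagine, threonine, isoleucine and methionine. 6 genes of its synthesis, AAT2, ASN1, HOM3, HOM2, THR4 and MET6, were taken by name from the 1042 features measured by RNA sequencing of Saccharomyces cerevisiae BY4741, a haploid laboratory strain of mating type a. The 4 groups were untreated, 1% methanol, 0.5 mM abscisic acid (ABA) and 2 mM ABA, with both doses given in 1% methanol. ABA is a plant hormone that the study used to bring proteins together in an anchor-away system, and methanol is its solvent. All groups grew for 5 h in synthetic glucose medium without tryptophan and had 3 libraries each, 12 in all, from 3 colonies grown on different days.

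The labels and the study's methods name BY4741 with no anchor-away tag, whereas its list of resources names a NAB3-ABI strain for the same data, and the tables used here cannot tell these apart. The markers that BY4741 lacks, HIS3, LEU2, MET17 and URA3, were not among the 1042 features, and the genes of mating type a, MFA1, MFA2 and STE2, were. The tables leave out features of low count, so the absence of a gene from them is not a measurement of 0. MET17 makes homocysteine, the direct precursor of methionine, and a strain without it takes its methionine from the medium.

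Aat2 is the aspartate aminotransferase of the cytosol, which makes aspartate from oxaloacetate and glutamate. Asn1 is an asparagine synthetase, and converts aspartate to asparagine. Hom3 is aspartate kinase, the first and threonine-inhibited step towards homoserine, and Hom2 is aspartate semialdehyde dehydrogenase, the step after it. From homoserine the pathway divides. Thr4, threonine synthase, ends the threonine branch, and Met6 adds a methyl group to homocysteine to make methionine. Genes of amino acid synthesis in yeast are induced by the activator Gcn4, which binds the core sequence TGACTC, when amino acids run short, and many methionine genes also carry CACGTG, the site of Cbf1.

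The sequence upstream of the 6 genes is shown because all of them hold TGACTC, the core sequence named above for genes of amino acid synthesis. The share in other lists of such genes is not given here, so whether the motif is particular to the 6 genes was not tested. TGACTC, on either strand, occurred within the 500 bases before the start codon of 6 of the 6 genes. The same was found for 866 of 6651 nuclear protein-coding genes (13.02%) and for 128 of the 892 such genes with a measured feature (14.3%). The windows hold the motif in capitals and are written 5′ to 3′ on the strand of the gene, with R64-1-1 coordinates. GAGTCA is TGACTC read on the other strand, and the distance is counted from the first base of the motif to the start codon.
AAT2, 143 bases before the start codon, chrXII:198211-198240, minus strand: gtcggaccgagtGAGTCAgcgtgatcggcc
ASN1, 227 bases before the start codon, chrXVI:822381-822410, plus strand: tcatgtaacattTGACTCattctgtaaact
HOM3, 283 bases before the start codon, chrV:258224-258253, minus strand: ttttcaggcccaTGACTCaccttttctttc
HOM2, 184 bases before the start codon, chrIV:770161-770190, plus strand: tcaagcattgatTGACTCattttcctctga
THR4, 179 bases before the start codon, chrIII:216506-216535, plus strand: gtgcgaacaaaaGAGTCAttacaacgagga
THR4, 415 bases before the start codon, chrIII:216270-216299, plus strand: caagagaaacgcTGACTCactacttatggt
MET6, 354 bases before the start codon, chrV:342504-342533, minus strand: tatttttcgctaGAGTCAtcgcagtcatgg
MET6, 459 bases before the start codon, chrV:342609-342638, minus strand: acgtcaggaccgGAGTCAggtgaaaaaatg

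CACGTG, which reads the same on both strands, occurred in 2 of the 6 windows of 500 bases, those of HOM3 and MET6. It was found before 400 of the 6651 genes (6.01%) and before 66 of the 892 measured genes (7.40%). The HOM3 site lies next to its TGACTC, and the MET6 site lies at the far end of the searched sequence. None of the windows overlapped the annotated transcript of its own gene. Those of HOM2, THR4 and the TGACTC of MET6 overlapped a transcript of the neighbouring gene on the same strand (YDR157W, RSC6 and YER091C-A), and those of AAT2 and HOM2 a cryptic unstable transcript on the opposite strand. A match of letters is a description of the sequence and not a measurement of binding.
HOM3, 304 bases before the start codon, chrV:258245-258274, minus strand: tgtggctctaacCACGTGtatttttcaggc
MET6, 495 bases before the start codon, chrV:342645-342667, minus strand: tatttCACGTGacttacaaacag

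The values are normalized read counts, that is, counts divided by a size factor of each library, estimated per group from the deposited mean over all 12 libraries and the deposited log2 fold changes. Single libraries had no values to analyse here, and each level is given with a 95% interval from the authors' DESeq2 model. That model fitted a common dispersion (variance beyond counting noise) for each gene over all groups. An interval therefore does not measure the spread among the 3 libraries of its own group. Normalized counts are relative to the other RNA in a library, so less RNA of a gene per cell and more RNA of other genes cannot be told apart. From the standard errors, the effective depth relative to untreated was 0.542 in 1% methanol, 0.506 in 0.5 mM ABA and 0.740 in 2 mM ABA. A gene counted as called when its log2 fold change was past 1 in either direction (2-fold) with a Benjamini-Hochberg adjusted p of at most 0.05, from the two-sided Wald test of DESeq2 over all features of the comparison. For 2 mM ABA against untreated and the mean of both doses against methanol, the Wald test was run on values computed from the other comparisons. The count at an unadjusted p under 0.05 is given as well.

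The 6 genes covered the range from low to high counts. MET6 averaged 120.6 normalized counts over all libraries, place 107 of 1042 from the top. HOM2 (29.6), ASN1 (28.5) and HOM3 (15.4) lay on both sides of the median feature (18.6), and THR4 (9.34) and AAT2 (9.03) had 27.0% and 25.4% of features below them. Per kilobase of the annotated transcript the means were 44.7 for MET6, 22.1 for HOM2, 15.5 for ASN1, 8.39 for HOM3, 6.96 for AAT2 and 5.37 for THR4. The fitted dispersion, which leaves out counting noise and is common to all groups, gave a coefficient of variation of 19.8% for MET6 and 32.7% for HOM2. It was 40.1% for ASN1, 41.7% for HOM3, 48.1% for AAT2 and 49.7% for THR4, against a median of 36.6% over all features. MET6 was therefore the most precisely measured of the 6 genes, and AAT2 and THR4 the least.

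**Figure D1:**
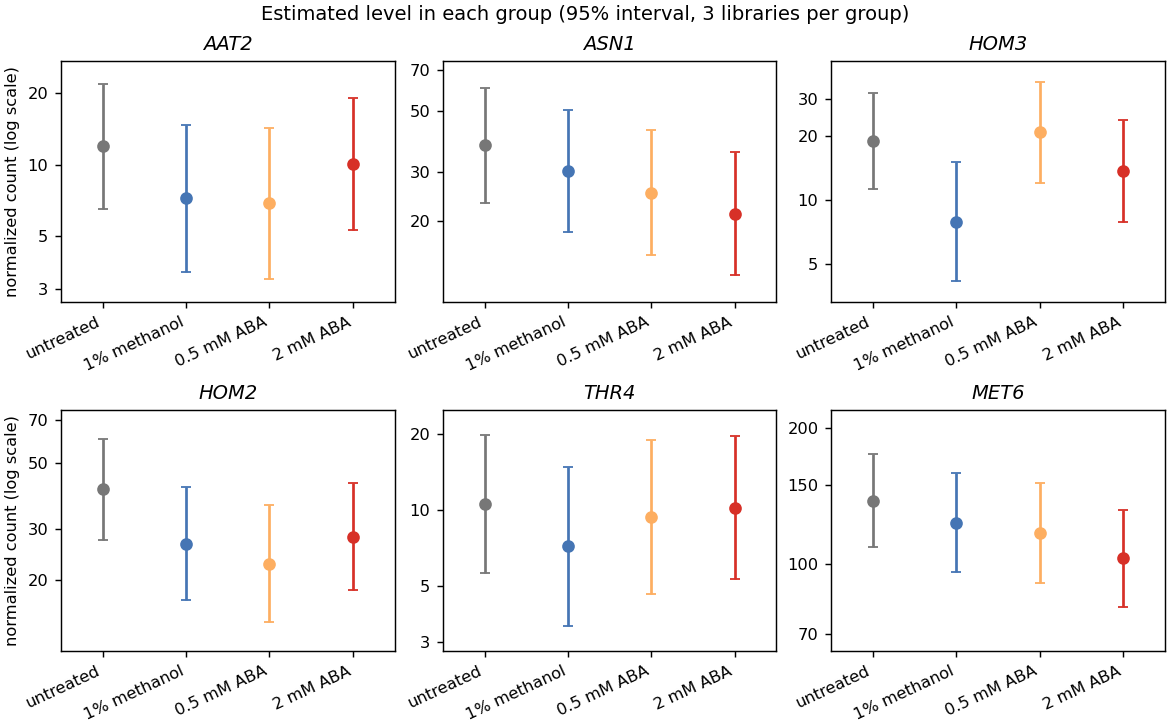
Estimated level of each gene in each group, in normalized counts on a log scale that differs between panels, with points for the estimate and bars for the 95% interval (3 libraries per group). HOM3 was at 7.93 in 1% methanol and between 13.8 and 20.8 in the other groups, whereas MET6 ran between 103.1 in 2 mM ABA and 138.2 in untreated cultures.

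The first question was what the solvent alone changed. In 1% methanol the estimate of each of the 6 genes was lower than in untreated cultures, with log2 fold changes between -1.26 (HOM3) and -0.16 (MET6) and a median of -0.59. Over all 1042 features the median was 0.00 and 50.1% lay below 0. No member was called, and 0 of 1042 features were (0%). 1 member, HOM3, had an unadjusted p under 0.05, as did 41 of 1042 features (3.93%).

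Against the methanol control, the comparison that isolates ABA, the members did not share a direction. In 0.5 mM ABA, 2 members were above 0 and 4 below, with a median log2 fold change of -0.07 (all features 0.01). No member and no other feature was called (0%), and 1 member, HOM3, was among the 78 of 1042 features with an unadjusted p under 0.05 (7.49%). In 2 mM ABA, 4 members were above 0 and 2 below, with a median of 0.28 (all features 0.01). None was called, against 1 of 840 features (0.119%), and none had an unadjusted p under 0.05, against 88 of 840 (10.5%). In the contrast of the mean of both doses with methanol, 3 members were above 0 and 3 below. Again none was called, against 0.119% of features, and HOM3 alone had an unadjusted p under 0.05, against 9.88% of features.

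Against untreated cultures, ABA and its solvent were compared together with no addition. In 2 mM ABA the estimate of each of the 6 genes was again below 0, between -0.82 (ASN1) and -0.05 (THR4), with a median of -0.44, where the median of all 840 features was 0.03 and 47.6% lay below 0. None was called, against 0.476% of features, and none had an unadjusted p under 0.05, against 8.21%. In 0.5 mM ABA the 4 members in that table had a median of -0.40 (all 698 features 0.00), with 3 below 0. None was called, against 0.573% of features, and none had an unadjusted p under 0.05, against 8.02%. The comparisons with untreated share the untreated libraries, and those with methanol share the methanol libraries, so their values are not independent of each other.

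Between the doses, 2 mM against 0.5 mM ABA, 3 members were above 0 and 3 below, with a median log2 fold change of -0.03 (all 1042 features -0.02). No member and no other feature was called (0%), and no member had an unadjusted p under 0.05, against 5.09% of features. Over the 6 pairwise comparisons the members gave 36 values, of which 34 had an adjusted p, and the lowest adjusted p was 0.611. 2 of the 36 were past 2-fold, and the same 2 had an unadjusted p under 0.05, both of HOM3. 7 of the 36 had a 95% interval within 2-fold in both directions. They were the 6 values of MET6 and that of HOM2 in 2 mM ABA against methanol. The other 29 intervals reached past 2-fold, so a 2-fold difference in at least 1 direction lay within each of them.

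**Figure D2:**
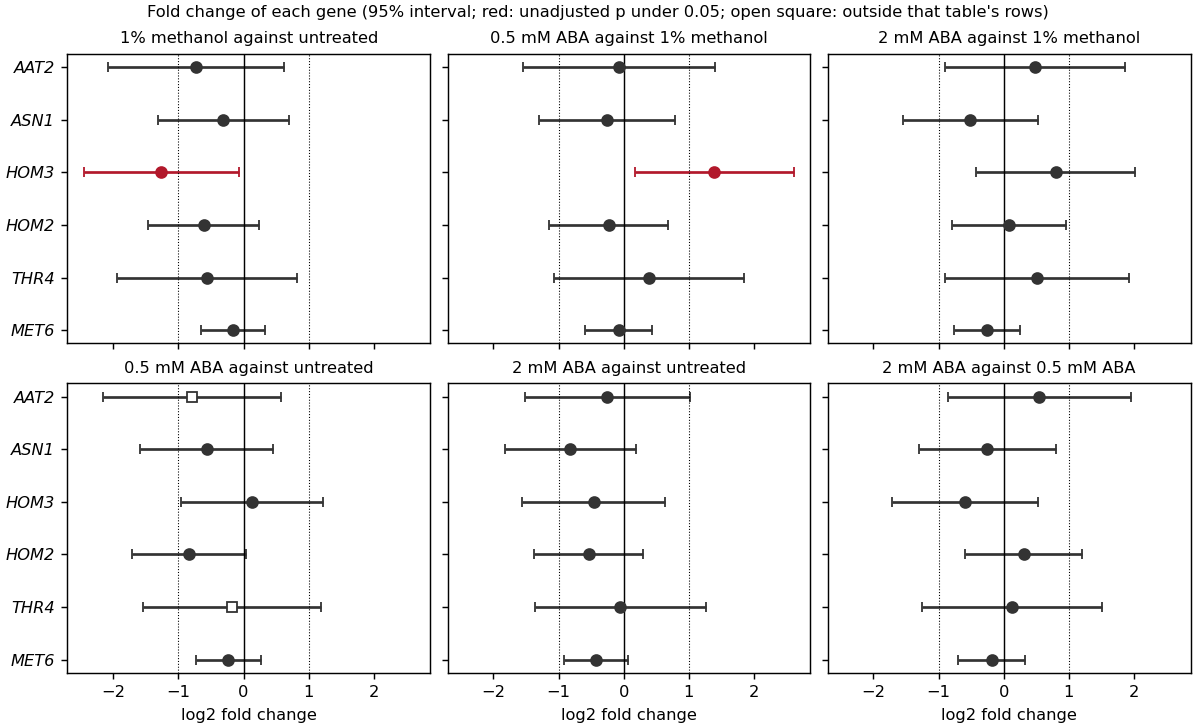
Log2 fold change (horizontal axis) of each gene (rows) in the 6 pairwise comparisons, with 95% intervals and dotted lines at 2-fold. HOM3 is in red at -1.26 in 1% methanol against untreated and at 1.39 in 0.5 mM ABA against 1% methanol, the 2 values with an unadjusted p under 0.05, and open squares mark AAT2 and THR4, which lie outside the rows of the table of 0.5 mM ABA against untreated.

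The genes that feed aspartate into the family came first in the pathway. AAT2 (YLR027C, chrXII:196829-198126, minus strand, 1 coding exon) was estimated at 11.95 normalized counts in untreated cultures (95% interval 6.53 to 21.9) and 7.22 in 1% methanol (3.54 to 14.7). It was at 6.89 in 0.5 mM ABA (3.32 to 14.3) and 10.1 in 2 mM ABA (5.31 to 19.1). The order was therefore untreated, 2 mM ABA, 1% methanol and 0.5 mM ABA from high to low, with the 4 intervals overlapping. The log2 fold change was -0.73 ± 0.69 (SE) in 1% methanol against untreated, with an adjusted p of 0.998. In 2 mM ABA against methanol it was 0.48 ± 0.70 (adjusted p = 0.864 by the DESeq2 Wald test), and in 0.5 mM ABA against methanol -0.07 ± 0.75 (adjusted p = 0.993). The 95% interval of the difference included 0 for each pair of groups. AAT2 has no row in the table of 0.5 mM ABA against untreated, whose rows begin at a mean of 11.1 normalized counts, and the value computed from the other tables was -0.79 ± 0.70, with a 95% interval from -2.16 to 0.58 and no adjusted p. 3 cryptic unstable transcripts are annotated on the opposite strand of AAT2, and the sources used here do not say whether the counting used strand.

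ASN1 (YPR145W, chrXVI:822573-824412, plus strand, 1 coding exon) was at 37.5 normalized counts in untreated cultures (23.3 to 60.4) and 30.2 in 1% methanol (18.2 to 50.2). It was at 25.3 in 0.5 mM ABA (15.0 to 42.5) and 21.2 in 2 mM ABA (12.8 to 35.3). The estimates descended in the order of the groups, but each neighbouring pair lay within the other's interval. The log2 fold change between the ends of that order, 2 mM ABA against untreated, was -0.82 ± 0.51 (SE). Its adjusted p was 0.774, by a Wald test on values computed from the other comparisons. Against methanol it was -0.26 ± 0.53 in 0.5 mM ABA (adjusted p = 0.913 by the DESeq2 Wald test) and -0.51 ± 0.53 in 2 mM ABA (adjusted p = 0.809). The 95% interval for 2 mM ABA ran from -1.55 to 0.52, which includes both no change and a decrease of more than 2-fold.

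ASN1 has a similar gene, ASN2, the other asparagine synthetase of yeast, and reads with several matches were placed at random by the authors' aligner. The coding sequences were identical at 81.2% of aligned bases, with a longest identical run of 83 bases, and 4.45% of the 30-base stretches of ASN1 also occurred in ASN2. Reads from such stretches may be counted for either gene. ASN2 was estimated at 23.3 normalized counts in untreated cultures, 30.1 in 1% methanol, 20.5 in 0.5 mM ABA and 16.8 in 2 mM ABA. Like ASN1 it was lowest in 2 mM ABA, and unlike ASN1 it was highest in methanol. Its log2 fold change in 2 mM ABA against methanol was -0.84 ± 0.48 (adjusted p = 0.536), and in methanol against untreated 0.37 ± 0.46 (adjusted p = 0.998). AAT2 and its mitochondrial counterpart AAT1 were identical at 62.6% of aligned bases, with a longest identical run of 12 bases.

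HOM3 (YER052C, chrV:256347-258179, minus strand, 1 coding exon), the gene of aspartate kinase, had the widest range of the 6 genes over the groups. It was at 19.0 normalized counts in untreated cultures (11.3 to 31.8) and 7.93 in 1% methanol (4.17 to 15.1). It was at 20.8 in 0.5 mM ABA (12.03 to 36.1) and 13.8 in 2 mM ABA (7.93 to 23.9). The estimate was thus lowest in methanol alone, and those with ABA in the same solvent were nearer to untreated. In order from high to low, the groups were 0.5 mM ABA, untreated, 2 mM ABA and methanol, and the 95% interval of the difference between neighbours in that order included 0.

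In 1% methanol against untreated the log2 fold change of HOM3 was -1.26 ± 0.61 (SE), a fold of 0.418 with an interval from 0.183 to 0.953. The unadjusted p was 0.0380, place 28 of 1042 features, and the adjusted p was 0.998 (DESeq2 Wald test). In 0.5 mM ABA against methanol it was 1.39 ± 0.62, a fold of 2.63 (1.13 to 6.12), with an unadjusted p of 0.0252, place 39 of 1042, and an adjusted p of 0.611. Neither value passed the test, and both rest on the same 3 methanol libraries. In 2 mM ABA against methanol the log2 fold change was 0.80 ± 0.62 (adjusted p = 0.709). In the mean of both doses against methanol it was 1.096 ± 0.55, with an unadjusted p of 0.0477 and an adjusted p of 0.488.

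Without the methanol libraries, the values of HOM3 were smaller. The log2 fold change was 0.13 ± 0.56 in 0.5 mM ABA against untreated (adjusted p = 0.951) and -0.46 ± 0.56 in 2 mM ABA against untreated (adjusted p = 0.974). Between the doses, 2 mM against 0.5 mM ABA, it was -0.60 ± 0.57 (adjusted p = 0.968). The level in methanol corresponds to 23.8 normalized counts summed over 3 libraries, and counting noise made up 46.6% of the variance of that estimate, against 16.5% in untreated cultures. Methanol libraries had an effective depth of 0.542 of untreated, and the part of depth in the low estimate was not tested. To be called as the only feature to pass, HOM3 would have needed an absolute log2 fold change of 2.47 in methanol against untreated and of 2.53 in 0.5 mM ABA against methanol. With p taken from a t distribution on 8 degrees of freedom instead, neither value kept an unadjusted p under 0.05.

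HOM2 (YDR158W, chrIV:770277-771618, plus strand, 1 coding exon), which acts directly after HOM3, did not follow its order of levels. It was at 40.8 normalized counts in untreated cultures (27.5 to 60.7) and 26.7 in 1% methanol (17.2 to 41.5). It was at 22.8 in 0.5 mM ABA (14.4 to 36.0) and 28.2 in 2 mM ABA (18.5 to 42.9). Untreated was the highest group, and the other 3 groups lay within each other's intervals. The largest difference of HOM2, 0.5 mM ABA against untreated, was -0.84 ± 0.45 (SE) on the log2 scale, with an unadjusted p of 0.0588 and an adjusted p of 0.662 (DESeq2 Wald test). In methanol against untreated it was -0.61 ± 0.44 (adjusted p = 0.998), and in 2 mM ABA against untreated -0.53 ± 0.43 (adjusted p = 0.894). Against methanol it was -0.23 ± 0.47 in 0.5 mM ABA (adjusted p = 0.913) and 0.08 ± 0.45 in 2 mM ABA (adjusted p = 0.969), and for 2 mM ABA the interval lay within 2-fold, from -0.80 to 0.96. The 95% interval of the difference included 0 for each pair of groups.

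A cryptic unstable transcript of 347 bases, CUT_CDR158WTs2, lies wholly within HOM2 on the same strand, so reads of the 2 features cannot be told apart there. The transcript is a feature of its own, with a mean of 6.51 normalized counts. Its log2 fold change was -1.65 ± 0.83 in methanol against untreated, where it was 1 of the 41 features with an unadjusted p under 0.05, and -0.40 ± 0.96 in 0.5 mM ABA against methanol. The first of these has the sign of that of HOM2, and its part in the HOM2 value was not tested. The annotated transcripts of 3 members also share bases with a gene on the same strand, 56 bases for HOM2 with YDR157W, 68 for MET6 with YER091C-A and 2 for AAT2 with SED5.

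HOM6, the homoserine dehydrogenase that follows HOM2, is outside the 6 genes and was lower in 0.5 mM ABA than any of them relative to untreated. It was at 18.9 normalized counts in untreated cultures, 11.3 in 1% methanol, 4.84 in 0.5 mM ABA and 15.7 in 2 mM ABA. In 0.5 mM ABA against untreated its log2 fold change was -1.96 ± 0.68 (adjusted p = 0.168), and in 2 mM against 0.5 mM ABA 1.70 ± 0.69 (adjusted p = 0.698). The 3 consecutive steps Hom3, Hom2 and Hom6 thus did not have their lowest estimates in the same group, which was methanol for HOM3 and 0.5 mM ABA for HOM2 and HOM6, and none of these values passed the adjusted threshold.

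THR4 (YCR053W, chrIII:216544-218283, plus strand, 1 coding exon), the end of the threonine branch, had the largest fitted dispersion of the members. The interval of each of its differences between groups reached past 2-fold. It was at 10.6 normalized counts in untreated cultures (5.65 to 19.9) and 7.18 in 1% methanol (3.47 to 14.9). It was at 9.36 in 0.5 mM ABA (4.64 to 18.9) and 10.2 in 2 mM ABA (5.32 to 19.7). As for HOM3 the lowest estimate was that of methanol, with the 4 intervals overlapping. The log2 fold change was -0.56 ± 0.71 (SE) in methanol against untreated (adjusted p = 0.998 by the DESeq2 Wald test), 0.38 ± 0.74 in 0.5 mM ABA against methanol (adjusted p = 0.911) and 0.51 ± 0.72 in 2 mM ABA against methanol (adjusted p = 0.859). In 2 mM ABA against untreated it was -0.05 ± 0.67 (adjusted p = 0.983), and the interval, from -1.36 to 1.26, still spanned 2-fold in both directions. THR4, like AAT2, has no row for 0.5 mM ABA against untreated, where the value computed from the other tables was -0.18 ± 0.69, with a 95% interval from -1.54 to 1.18 and no adjusted p. The 95% interval of the difference included 0 for each pair of groups.

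MET6 (YER091C, chrV:339762-342457, minus strand, 1 coding exon), the methionine synthase, was the most abundant member and the one with the narrowest intervals. It was at 138.2 normalized counts in untreated cultures (109.0 to 175.2) and 123.6 in 1% methanol (96.2 to 158.8). It was at 117.4 in 0.5 mM ABA (91.1 to 151.3) and 103.1 in 2 mM ABA (80.5 to 132.1). The estimates descended in the order of the groups, as for ASN1, and the 95% interval of the difference between neighbours included 0. Between the ends, 2 mM ABA against untreated, the log2 fold change was -0.42 ± 0.25 (SE), a fold of 0.746 with an interval from 0.530 to 1.05. Its adjusted p was 0.772, by a Wald test on values computed from the other comparisons. Against methanol it was -0.07 ± 0.26 in 0.5 mM ABA (adjusted p = 0.961 by the DESeq2 Wald test) and -0.26 ± 0.26 in 2 mM ABA (adjusted p = 0.795), with an interval from -0.77 to 0.25 for the higher dose. In these data a change of MET6 past 2-fold thus lay outside the 95% interval in each of the 6 comparisons.

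**Figure D3:**
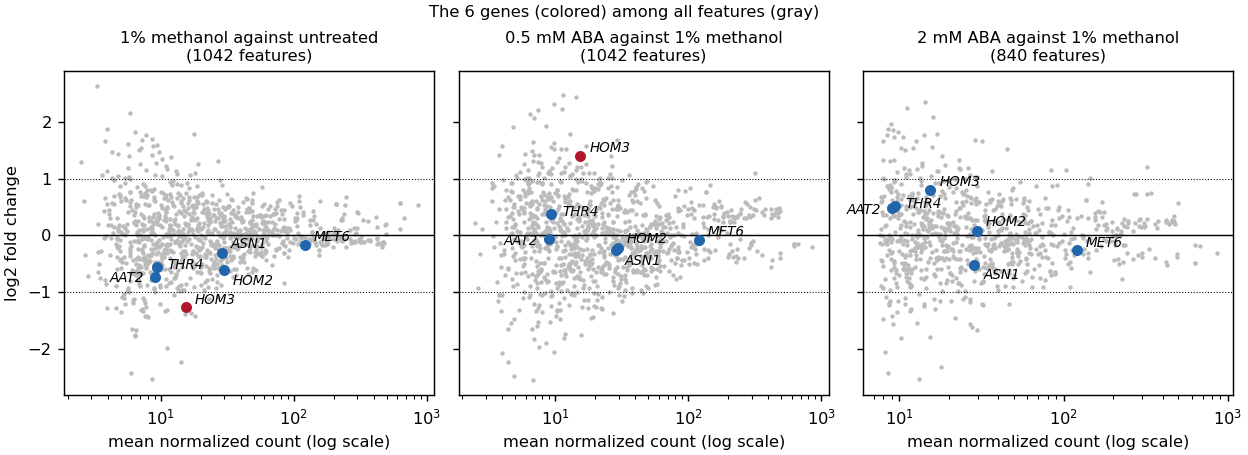
Log2 fold change against mean normalized count (log scale) for all features (gray) and the 6 genes (blue, red at an unadjusted p under 0.05), with dotted lines at 2-fold. In 1% methanol against untreated all 6 genes lie below 0 (median -0.59), whereas against methanol they lie on both sides of 0 at each dose, and features of low count scatter most widely.

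The other genes around the pathway were grouped by list, and none of them was called in any comparison, beside 0% to 0.573% of all features. Of 9 further genes of aspartate and asparagine metabolism, 6 were measured, with a median log2 fold change of 0.02 in methanol against untreated and -0.62 in 0.5 mM ABA against methanol, where 0 lay above 0 and 6 below. Of all features in the latter comparison, 49.3% lay below 0. Of 5 further homoserine and threonine genes, 3 were measured (HOM6, ILV1 and GLY1), with medians of 0.20 and 0.13 in 0.5 mM and 2 mM ABA against methanol. The all-feature medians in these comparisons lay between 0.00 and 0.01. Neither list had a member with an unadjusted p under 0.05 against methanol, beside 7.49% of all features in 0.5 mM ABA and 10.5% in 2 mM ABA. HOM6 had an unadjusted Wald p of 0.00386 in 0.5 mM ABA against untreated and of 0.0139 in 2 mM against 0.5 mM ABA. In these last comparisons 8.02% and 5.09% of all features had an unadjusted p under 0.05.

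Of 16 further genes of homocysteine, methionine and S-adenosylmethionine, 9 were measured, with a median of -0.06 in methanol against untreated, -0.48 in 0.5 mM ABA against methanol and -0.08 in 2 mM ABA against methanol. 4 of them had an unadjusted p under 0.05 in 1 comparison each, with 7 to 9 genes measured per comparison, beside 7.49%, 8.02%, 8.21% and 5.09% of all features in the 4 comparisons in the order given next. ADO1, adenosine kinase, was at -1.44 ± 0.63 in 0.5 mM ABA against methanol (adjusted p = 0.611). MUP1, the methionine permease, was at -1.17 ± 0.58 in 0.5 mM ABA against untreated (adjusted p = 0.592). SAM1, which makes S-adenosylmethionine from the product of Met6, was at -0.82 ± 0.41 in 2 mM ABA against untreated (adjusted p = 0.591). MET13, a reductase that supplies methyl groups to Met6, was at -2.71 ± 0.95 in 2 mM against 0.5 mM ABA (adjusted p = 0.358), with a mean of 6.67 normalized counts over all libraries. None passed the adjusted threshold.

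Sulfate assimilation, which supplies the sulfur of methionine, was measured by 2 of 10 genes. MET10, a subunit of sulfite reductase, was at 11.5 normalized counts in 2 mM ABA, against 3.63 in 1% methanol, with a log2 fold change of 1.66 ± 0.76 (adjusted p = 0.384). In methanol against untreated MET10 was at -1.41 ± 0.75 (adjusted p = 0.998). Its lowest estimate was in methanol. MET5, the other subunit of sulfite reductase, was lowest in another group, at 12.2 normalized counts in untreated cultures, 9.69 in 1% methanol, 5.10 in 0.5 mM ABA and 14.0 in 2 mM ABA. Of 8 regulators of these genes only GCN4 was measured, at 42.6 normalized counts in untreated cultures, 26.3 in 1% methanol, 35.7 in 0.5 mM ABA and 40.9 in 2 mM ABA. Its log2 fold change was -0.69 ± 0.41 in methanol against untreated (adjusted p = 0.998) and 0.64 ± 0.42 in 2 mM ABA against methanol (adjusted p = 0.623). Gcn4 is controlled mainly in its translation, which RNA counts do not measure.

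The features most like the members over the groups were sought by the distance between log2 differences from untreated in the other 3 groups, among 771 features at least as abundant as AAT2. The median profile of the members was -0.59 in 1% methanol, -0.40 in 0.5 mM ABA and -0.44 in 2 mM ABA. The 5 nearest features were ADE16 (distance 0.0912 log2 units), UTR2 (0.130), RPL7A (0.138), ADE5,7 (0.191) and ECM33 (0.228). ADE16 and ADE5,7 encode enzymes of purine synthesis, and RPL7A a protein of the large ribosomal subunit, whereas UTR2 and ECM33 belong to neither of these groups. The nearest to single members were GCN1 to AAT2 (0.0757), HIS1 to ASN1 (0.126) and HIS4 to HOM2 (0.175). RPL24B was nearest to HOM3 (0.278), YMR173W-A to THR4 (0.122) and RPL12A to MET6 (0.0776). The nearest feature to HOM3 was farther off than those of the other 5 genes. The standard errors of the HOM3 differences from untreated, 0.56 to 0.61, were larger than all of these distances. These distances are descriptions over 3 differences that share the untreated libraries.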

How the data were processed

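Total RNA depleted of rRNA was sequenced from 4 groups of 3 libraries, each with a forward and a reverse read file. Adapters were removed by the authors with Flexbar 3.4.0, and collapsed reads were aligned in pairs to R64-1-1 with Novoalign 2.04 (reads with several matches placed at random) and counted with pyCRAC 1.4.6. DESeq2 (version not given in the sources used here) was run by the authors, who deposited 5 tables of 1042, 698, 1042, 840 and 1042 features. The deposited mean is a signal, the count after division by the size factor of each library, averaged by the authors over 12 libraries. The log2 fold changes, standard errors and p-values are the authors' own model results. Fold changes and errors were used as the data here, since single libraries were not analysed, and depth per library is unknown. Rows begin at means of 2.51, 11.1, 2.51, 7.62 and 2.51 normalized counts.

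The table with the title of 2 mM ABA against untreated was identical to the difference of 0.5 mM ABA and 1% methanol in all 698 features with both (largest difference 7.99e-15), and was used as such. As titled it would leave a median absolute difference of 0.419. 2 mM ABA against untreated and the mean of both doses against methanol were computed from the other tables for 840 features. Wald p (two-sided, normal) and Benjamini-Hochberg values were recomputed per comparison. Group variances were solved from squared standard errors, and gave group levels, dispersions and relative depths. Intervals are the estimate ± 1.96 standard errors (95%).

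Positions came from the authors' annotation, and sequence from the RefSeq R64 genome, where ATG was found at 6656 of 6656 annotated nuclear start codons. The members, gene lists, motifs and tests were chosen with earlier results of these data known. Named genes are the 6 members, list genes with an unadjusted p under 0.05 in any comparison, otherwise the largest and smallest Wald statistic of each list for 2 mM ABA against methanol (not all are described), GCN4, and the nearest profiles. HIS3, LEU2, MET17 and URA3 check the strain. Alternatives were an adjusted p of 0.1, no fold minimum, a t distribution, a count minimum, centring, a GC trend, adjustment over shared features, a modelled variance and the title as deposited. Computing used matplotlib 3.10.9, scipy 1.17.1, pandas 2.3.3 and numpy 2.4.6 under Python 3.11.15.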

Additional observations from a re-analysis of the deposited data

How the results depend on the processing

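Of 259 values of the members recomputed under alternatives, 256 kept their direction and stayed uncalled, 3 reversed and 0 gained a call, and the lowest adjusted p was 0.459. Most alternatives changed only the threshold, the test or the set of features and left the fold changes as they were. A direction could change only under centring, the GC trend and the title as deposited. Under the others the direction was fixed in advance. With a t distribution of 8 degrees of freedom, the members with an unadjusted p under 0.05 numbered 0 in 1% methanol against untreated and 0 in 0.5 mM ABA against methanol, in place of 1 each. If the table titled 2 mM ABA against untreated were taken as titled, 1 member would have an unadjusted p under 0.05, the median would be -0.070, and HOM3 (1.39) and THR4 (0.38) would be above 0, since that table holds another comparison. With the trend on GC content removed, AAT2 in 0.5 mM ABA against methanol was at 0.11 in place of -0.07, with a standard error of 0.75. Features called over the whole table depended more on the setting. At an adjusted p of 0.1 they numbered 1 in place of 0 in 0.5 mM ABA against methanol, 12 in place of 1 in 2 mM ABA against methanol, and 10 in place of 4 in 0.5 mM ABA against untreated. With the t distribution they numbered 0 in 2 mM ABA against methanol and in each dose against untreated, and 0 for the table as titled. With the GC trend removed they numbered 6 in 2 mM ABA against methanol, 2 in each dose against untreated and 1 between the doses. With a count minimum at the median 1 was called in 0.5 mM ABA against methanol. The computed comparison of 0.5 mM ABA with untreated over 840 features was chosen after seeing the data. Standard errors under a model of depth and dispersion were within 1.1 times the solved ones for 6 of 6 members.

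No paired analysis was possible because the tables used here hold group estimates without single libraries. Neither a block for colony and day nor leaving out each library was run, so whether the low HOM3 level in methanol rests on 1 library was not tested. Depth limits the low levels most. Counting noise took the largest share of the variance in HOM3 in methanol (46.6%, 23.8 normalized counts summed over 3 libraries), and AAT2 and THR4 rest on 20.7 to 35.9 and 21.6 to 31.8 such counts per group.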

Other observations

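Other genes of amino acid synthesis were measured by list, and none was called in any comparison, beside 0% to 0.573% of all features. Of 10 branched-chain genes 7 were measured, with a median log2 fold change of -0.23 in 0.5 mM ABA and -0.18 in 2 mM ABA against methanol. BAT1, the mitochondrial branched-chain aminotransferase, was at 13.9 normalized counts in 2 mM ABA, against 44.0 in 1% methanol, with a log2 fold change of -1.66 ± 0.51 (DESeq2 Wald test, adjusted p = 0.0856). At the alternative threshold of an adjusted p of 0.1, BAT1 would be among the 12 features called in that comparison. ILV3, a dehydratase of isoleucine and valine synthesis, was at -1.16 ± 0.45 in 0.5 mM ABA (adjusted p = 0.611) and -1.20 ± 0.44 in 2 mM ABA (adjusted p = 0.184) against methanol. Of 16 arginine and lysine genes 11 were measured, with a median of -0.18 in 0.5 mM ABA against methanol, and 8 in 2 mM ABA against methanol, with a median of -0.19. LYS2, which acts in lysine synthesis, was at -1.79 ± 0.60 in 2 mM ABA against methanol (adjusted p = 0.135).

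Of 21 aromatic and histidine genes 10 were measured, of which 1 lay above 0 and 9 below in methanol against untreated (median -0.32). In that comparison 50.1% of all features lay below 0, and none of the 10 genes had an unadjusted p under 0.05, against 3.93% of features. TRP5, tryptophan synthase, was at 1.199 ± 0.55 in 0.5 mM ABA against methanol (adjusted p = 0.611), where ARO8, an aromatic aminotransferase, was at -1.25 ± 0.58 (adjusted p = 0.611). HIS1, of histidine synthesis, was at -0.82 ± 0.40 in 2 mM ABA against untreated (adjusted p = 0.577), and ARO2, chorismate synthase, at -1.42 ± 0.65 in 2 mM against 0.5 mM ABA (adjusted p = 0.808). The 4 genes measured of 4 that charge tRNAs with these amino acids had medians of 0.04 and -0.30 in 0.5 mM and 2 mM ABA against methanol. The 6 measured of 10 genes of amino donors and one-carbon supply had medians of 0.13 and -0.45 in the same comparisons. In 2 mM against 0.5 mM ABA, 0 of these 6 genes lay above 0 and 6 below (median -0.53), where 52.1% of all features lay below 0 (median -0.02). None of the 6 had an unadjusted p under 0.05 there, against 5.09% of features. The mating type genes, 3 measured of 7 genes that check the strain, had a median of -0.24 in 2 mM ABA against methanol.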
